A study of Rattus norvegicus with 12 samples.

Results

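Probe sets for 9 genes of secreted plasma and acute phase proteins were described in rat liver: Mug1, A2m, Plg, C3, Crp, Alb, Azgp1, Hp and Fgb. They were the probe sets to which the platform annotation gives 1 of these symbols and no other, which selected 23 of the 8799 probe sets on the array. A2m had 6 probe sets, Alb 4, Azgp1 and Crp 3 each, C3 and Fgb 2 each, and Mug1, Plg and Hp 1 each. A further 4 probe sets that name a member together with other genes were left out. All samples were livers of male Sprague-Dawley rats overfed by 17% of calories for 21 days by total enteral nutrition, a liquid diet infused through a gastric cannula, from a start weight of 150 g. The 4 diets were 70% fat from corn oil, 5% fat from corn oil, 70% fat from olive oil and 5% fat from olive oil, with 3 arrays each. Corn oil is rich in polyunsaturated and olive oil in monounsaturated fatty acids. Diets were isocaloric, so a higher share of fat also meant less carbohydrate. Each array held RNA of a pool, labelled 1 to 3 within a diet. The sources used here give neither the age of the rats nor how many shared a pool. P-values therefore cover only the variation from pool to pool, which may in part be technical.

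Hepatocytes make most plasma proteins. In an acute phase response, interleukin-6 and related cytokines act on hepatocytes through STAT3 and C/EBP factors. Transcripts of positive acute phase proteins then rise and those of negative ones, such as albumin, fall. In the rat, A2m encodes alpha-2-macroglobulin, a protease inhibitor that is low in healthy adults and a classic major acute phase protein. Mug1 encodes murinoglobulin 1, a related inhibitor that is abundant in healthy rat plasma and falls in inflammation. In bulk tissue, fewer cells of a type and less RNA per cell cannot be told apart.

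Each value is a log2 difference from the probe set's own median among the 12 arrays. No absolute level is known, so levels were not compared between genes and the liver label could not be checked against marker levels. A difference passed the test when the adjusted p of limma, a linear model with a shared spread, was under 0.05 over all 8740 probe sets tested. Differences are given with the standard error (SE) of the model on 3 arrays per diet. The array's control probe sets for actin and GAPDH lie at both ends of the transcripts, and the 3'/5' index is how far the 3' ones exceed the 5' ones on the log2 scale, averaged over both genes. It ran from 0.16 to 1.03 with 70% corn oil and was at 1.36 and 0.97 in pools 2 and 3 of 5% corn oil and highest in pool 1. It ran from -0.41 to -0.23 with 70% olive oil and from -0.43 to -0.31 with 5% olive oil, so it did not overlap between the oils. With corn oil it averaged 0.71 ± 0.48 at 70% fat and 1.28 ± 0.28 at 5% fat (SD, n = 3 each).

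Across the 23 probe sets, differences between the oils were more frequent than differences between the fat levels. Between corn and olive oil at 5% fat, 10 of 23 passed, 3 higher and 7 lower with corn oil, where 19.5% of all probe sets passed. At 70% fat 3 of 23 passed, 1 higher and 2 lower with corn oil, against 8.51% of all probe sets. Between 70% and 5% fat, 1 of 23 passed with corn oil, against 2.11% of all probe sets. With olive oil 0 of 23 passed by limma, none of them at an unadjusted p under 0.05, against 0.435% of all probe sets. For the difference between both fat effects 0 of 23 passed by limma, 5 at an unadjusted p under 0.05, and 0% of all probe sets passed. The median difference of the 23 was -0.20 for corn minus olive oil at 5% fat, where that of all probe sets was 0.06, and -0.05 at 70% fat, where that of all was 0.01. It was 0.11 for 70% minus 5% fat with corn oil, where that of all was -0.01, and -0.07 with olive oil, where that of all was 0.03. The 10 calls at 5% fat belonged to 6 of the 9 genes, and for 2 of those genes, Crp and Azgp1, probe sets passed in opposite directions.

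**Figure D1:**
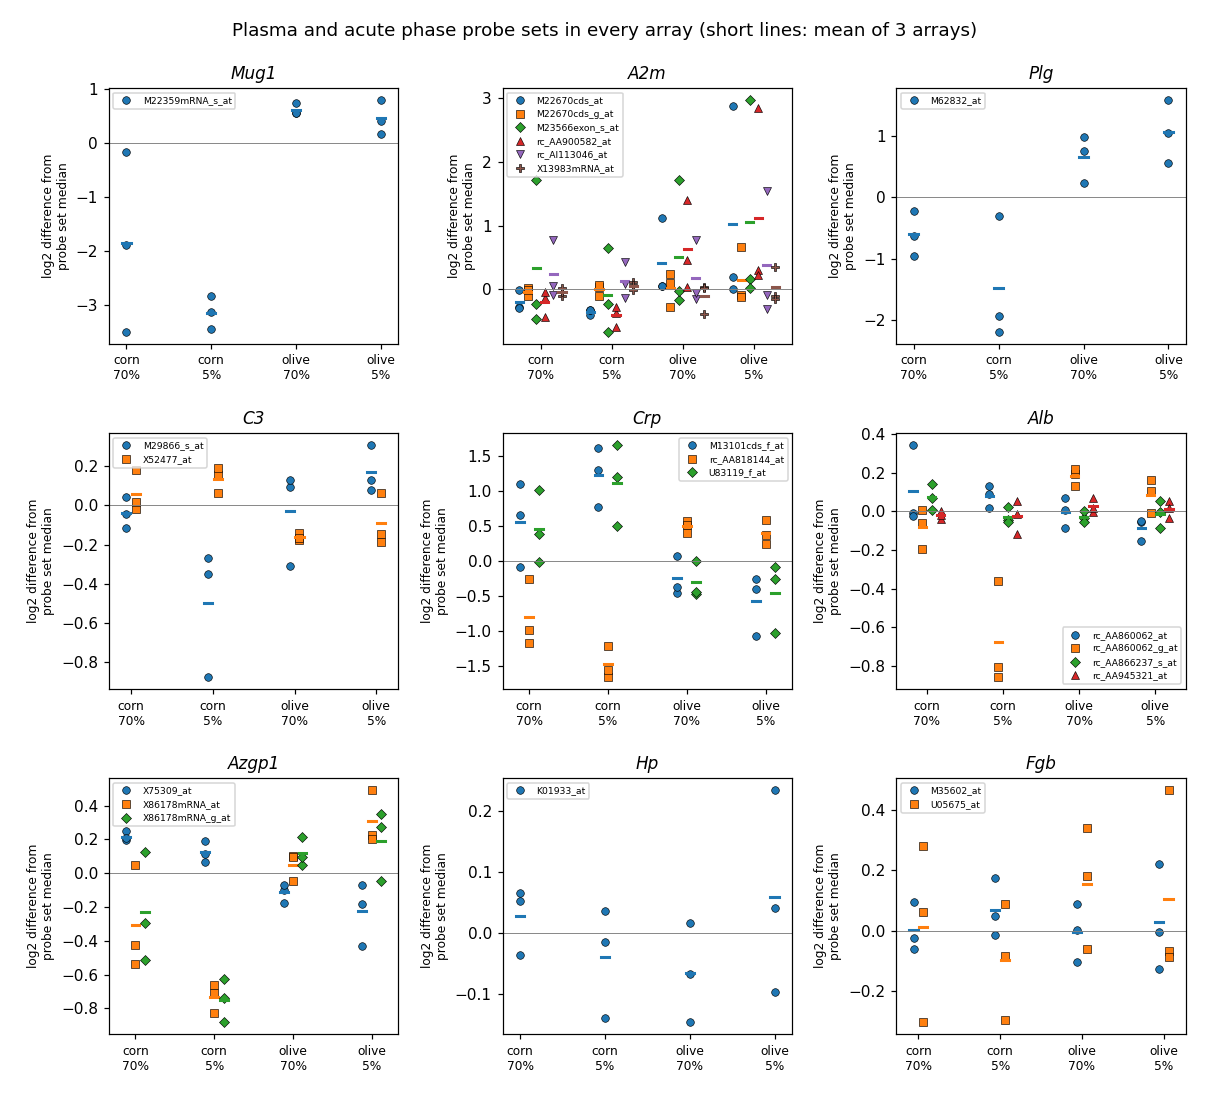
The log2 difference of each probe set from its median (y axis, with a scale of its own for each gene) in the 3 arrays of each diet (x axis), with a colour and symbol for each probe set and short lines for diet means. Mug1 and Plg lie lower with corn oil than with olive oil, A2m is highest in 1 array of 5% olive oil, and the Crp probe sets run in opposite directions.

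The highest values of A2m, the alpha-2-macroglobulin gene, lay in single pools rather than in all pools of a diet. Probe set M22670cds_at was at -0.28, -0.29 and -0.01 with 70% corn oil and at -0.39, -0.33 and -0.32 with 5% corn oil. It was at 0.05, 1.12 and 0.05 with 70% olive oil and at 0.19, 0.01 and 2.88 with 5% olive oil, in pools 1 to 3. Pool 3 of 5% olive oil thus stood above every other array, followed by pool 2 of 70% olive oil. Probe set rc_AA900582_at was at 2.84 in pool 3 and at 0.30 and 0.23 in the other pools of 5% olive oil, and at 1.40 in pool 2 of 70% olive oil. In both of these probe sets every corn oil array lay below every olive oil array, by a narrow gap. The corn oil arrays reached -0.01 and -0.04, and the olive oil arrays began at 0.01 and 0.04. The remaining A2m probe sets overlapped between the oils at both fat levels. Probe set M23566exon_s_at was at 2.97 in pool 3 of 5% olive oil. It was also high in pool 2 of 70% olive oil, at 1.72, and in pool 3 of 70% corn oil, at 1.71. Probe set rc_AI113046_at was highest in the same 3 arrays, at 1.54 in pool 3 of 5% olive oil and at 0.77 in each of the other 2.

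The other A2m probe sets, M22670cds_g_at and X13983mRNA_at, reached 0.67 and 0.35 in that pool. It held the highest of the 12 values for 6 of 6 A2m probe sets. The probe sets correlated over the 12 arrays with Pearson r from 0.51, between M22670cds_g_at and X13983mRNA_at, to 0.98, between M22670cds_at and rc_AA900582_at, given here as a description.

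None of the A2m probe sets passed in any of the 5 contrasts on all 12 arrays. For corn minus olive oil at 5% fat, rc_AA900582_at was at -1.53 ± 0.56 (SE, adjusted p = 0.0762 by limma) and M22670cds_at at -1.37 ± 0.58 (SE, adjusted p = 0.121 by limma). Without pool 3 of 5% olive oil they were at -0.67 and -0.45 and did not pass (adjusted p = 0.164 and 0.287). The call of rc_AA900582_at depended on single pools: it passed without pool 1 (-1.94, adjusted p = 0.0488) or pool 2 (-1.98, adjusted p = 0.0439) of 5% olive oil. Without both pool 3 of 5% olive oil and pool 2 of 70% olive oil, an alternative chosen after seeing the data, rc_AA900582_at (-0.67 ± 0.16, SE, adjusted p = 0.0234) and M22670cds_at (-0.45 ± 0.11, SE, adjusted p = 0.0281) passed. For 70% minus 5% fat with olive oil the 6 probe sets lay between -0.62 and -0.13, and without that pool all of them were above 0, from 0.02 to 0.42. Without both that pool and pool 2 of 70% olive oil they lay between -0.18 and 0.09, with 4 of 6 below 0. The sign of the A2m fat difference with olive oil thus depended on single pools.

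Pool 3 of 5% olive oil was also the highest array for 13 of 22 probe sets of other positive acute phase proteins and the lowest for 3. It held the highest value for 11 of the 23 probe sets described here (47.8%) and for those 13 of 22, from 15 measured genes (59.1%), against 6.24% of all probe sets, counts that were made after the values had been seen. It held the lowest value for 3 of the 22 (13.6%), against 8.60% of all probe sets. These were a probe set of Cd14, a lipopolysaccharide co-receptor, at -1.07, and both probe sets of Ambp, the precursor of alpha-1-microglobulin, at -0.15 and -0.21. Lcn2, which encodes the siderophore-binding lipocalin 2, was at 6.19 in that pool, against 0.85 and -0.39 in pools 1 and 2 of the same diet. The next highest value of Lcn2 was 2.80, in pool 3 of 70% olive oil. Lbp, which encodes the lipopolysaccharide-binding protein, was at 2.05 in pool 3, against -0.06 and 0.06 in the other pools of the diet. Orm1, the alpha-1-acid glycoprotein gene, was at 1.43, against 0.34 and -0.09. Serpina3n, which encodes a serine protease inhibitor, was at 1.05, against -0.08 and 0.10, and was next highest in pool 2 of 70% olive oil, at 0.80.

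The mean of the 22 probe sets on the positive list was 0.69 in pool 3 of 5% olive oil, and the other 11 arrays lay between -0.30 and 0.18. Without Lcn2 the mean of the other 21 probe sets was 0.43 in that pool, and the other arrays lay between -0.27 and 0.17. The mean of 25 probe sets of negative acute phase and carrier proteins was -0.10 in that pool, against 0.08 and 0.01 in the other pools of the diet. Kupffer cell and macrophage markers, as a mean of 18 probe sets, were at -0.03 in that pool, against 0.29 and 0.01. Hepatocyte markers, a mean of 32 probe sets, were at 0.04, against 0.04 and 0.10. Of 12 probe sets of blood cell markers 2 (16.7%) were highest in this pool, where 6.24% of all probe sets were. The mean of the 12 was at 0.03, against 0.07 and 0.07 in the other pools of the diet. S100a9, a neutrophil and monocyte protein, was at 1.01, against -0.14 and -0.19 in the other pools of the diet, and its partner S100a8 at 0.32, against -0.02 and -0.33. In other diets S100a9 reached 0.64 (pool 1 of 70% corn oil) and S100a8 0.31 (pool 2 of 5% corn oil). Hbb and Alas2, also on that list, went the other way. Hbb was at -0.02, against 0.58 and 0.73, and Alas2 at -0.16, against 0.43 and 0.53. The part of these cell types in the values of this pool was not tested. Of 44 probe sets for cytokine signalling to the acute phase, 14 (31.8%) were highest in this pool, against 6.24% of all probe sets. The lowest value lay there for 1 (2.27%), against 8.60% of all. Cebpd, which encodes C/EBP delta, was highest there for 2 of 3 probe sets, at 1.05 and 0.80, and Il6r, the interleukin-6 receptor gene, at 0.45. Both probe sets of Il6, the gene of interleukin-6 itself, were below 0 there, at -0.10 and -0.11.

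**Figure D2:**
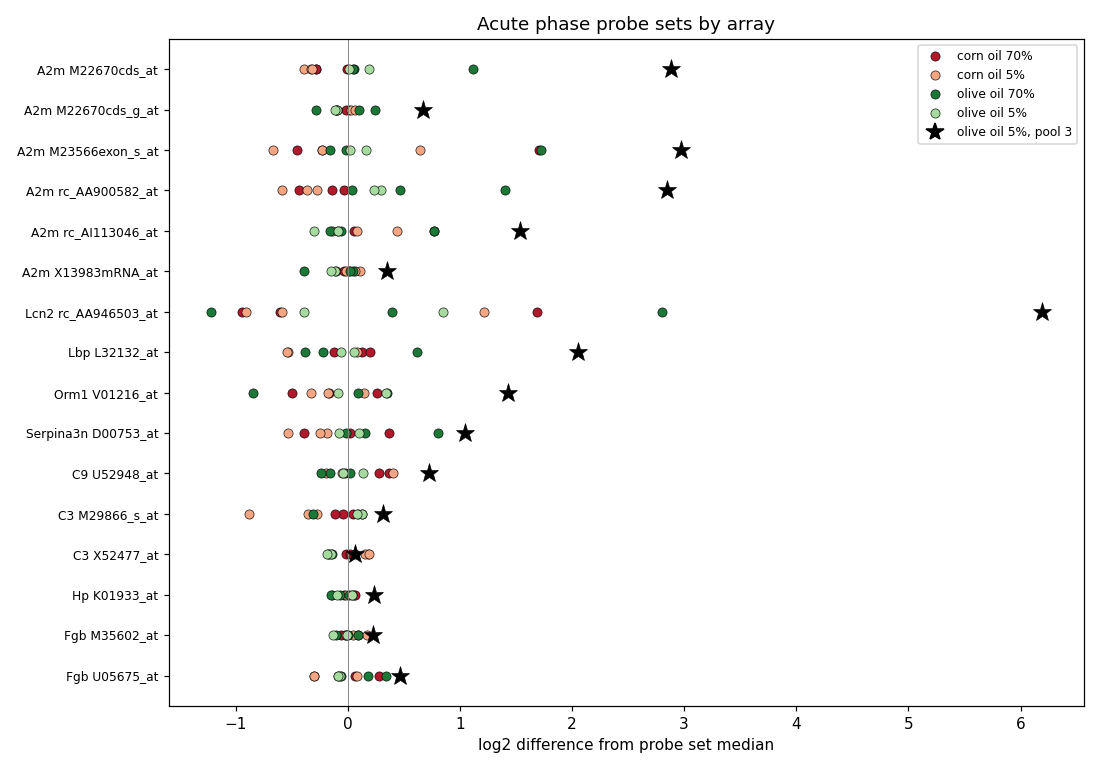
The log2 difference from the probe set median (x axis) of selected probe sets (rows) in each of the 12 arrays, coloured by diet. Pool 3 of 5% olive oil is shown as a star. Rows are the probe sets of A2m, Hp, Fgb and C3, with Lcn2, Lbp, Orm1, Serpina3n and C9 chosen after their values had been seen. Other probe sets of the positive list are left out, among them those of Cd14 and Ambp that were lowest in this pool. The star lies to the right of all other arrays in every row shown but 1 of the 2 C3 rows.

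Hp and Fgb passed in no contrast. Hp encodes haptoglobin, which binds free haemoglobin. Its probe set K01933_at was at 0.05, -0.04 and 0.07 with 70% corn oil and at -0.14, 0.04 and -0.02 with 5% corn oil. It was at -0.07, 0.02 and -0.15 with 70% olive oil and at 0.04, -0.10 and 0.23 with 5% olive oil. All of the diets overlapped, and the highest value lay again in pool 3 of 5% olive oil. For corn minus olive oil the 95% interval of the Hp difference ran from -0.31 to 0.11 at 5% fat and from -0.12 to 0.30 at 70% fat. For 70% minus 5% fat it ran from -0.14 to 0.28 with corn oil and from -0.33 to 0.08 with olive oil.

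Fgb encodes the beta chain of fibrinogen, the precursor of the fibrin clot. Probe set M35602_at stayed between -0.13 and 0.22 in all 12 arrays and U05675_at between -0.30 and 0.47, both with the highest value in pool 3 of 5% olive oil. Neither passed in any contrast (adjusted p from 0.488 to 0.976 over both oil contrasts and both probe sets, limma). The 95% interval of M35602_at ran from -0.18 to 0.26 for corn minus olive oil at 5% fat.

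The promoters of Fgb and C3 are shown because both genes are textbook targets of the interleukin-6 and C/EBP route, and that of Mug1 because it had the largest difference of the 23 probe sets. RefSeq sequences of build GRCr8, from 250 bases before to 50 after the annotated start, matched 7 of the 9 genes, and A2m and Hp had none in the table. The motifs searched on both strands were TTCNNNGAA (STAT), CTGGGAA (an interleukin-6 response element), TTGCNNAA (C/EBP) and GTTAAT (part of the site of HNF1, a liver transcription factor). They occurred in 8.87%, 11.3%, 10.6% and 7.45% of the 33469 promoters in the table. Capitals mark matches, which did not overlap each other.
Fgb, chr2:170700826-170701125, - strand: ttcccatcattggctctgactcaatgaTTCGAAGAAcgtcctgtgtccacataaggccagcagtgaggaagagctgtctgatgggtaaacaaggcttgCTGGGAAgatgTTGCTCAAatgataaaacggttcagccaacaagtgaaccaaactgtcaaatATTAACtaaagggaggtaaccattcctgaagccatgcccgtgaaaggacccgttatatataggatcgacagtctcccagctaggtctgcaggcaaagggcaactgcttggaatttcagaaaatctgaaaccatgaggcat
C3, chr9:2201290-2201589, - strand: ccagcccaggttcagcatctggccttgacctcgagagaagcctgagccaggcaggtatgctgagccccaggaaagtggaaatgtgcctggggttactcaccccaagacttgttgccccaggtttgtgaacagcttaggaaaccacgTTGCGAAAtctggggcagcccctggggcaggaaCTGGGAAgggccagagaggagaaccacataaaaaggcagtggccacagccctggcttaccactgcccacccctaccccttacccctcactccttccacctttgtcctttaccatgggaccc
Mug1, chr4:156748145-156748444, + strand: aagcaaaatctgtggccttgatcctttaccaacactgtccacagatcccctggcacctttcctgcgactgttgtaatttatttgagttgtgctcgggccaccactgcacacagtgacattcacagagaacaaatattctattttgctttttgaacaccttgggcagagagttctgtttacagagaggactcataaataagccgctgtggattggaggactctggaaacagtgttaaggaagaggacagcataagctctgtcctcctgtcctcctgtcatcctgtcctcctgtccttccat
The Fgb window held 1 match of each of the 4 motifs, at 223, 152, 141 and 90 bases before the start in the order above. The C3 window held CTGGGAA at 71 and the C/EBP motif at 104 bases before the start. No match lay in the Mug1 window, which says only that these letters are not in it.

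C3 encodes complement component 3, on which all routes of complement activation converge. Its 2 probe sets did not move together (Pearson r = -0.48 over the 12 arrays, as a description). M29866_s_at was at -0.88, -0.35 and -0.27 with 5% corn oil and at 0.13, 0.08 and 0.31 with 5% olive oil, so those diets did not overlap. It was 1.60-fold lower with corn oil there (-0.67 ± 0.16, SE, adjusted p = 0.0108 by limma). At 70% fat the difference was -0.01 ± 0.16 (SE, adjusted p = 0.975 by limma). The call at 5% fat was lost without both pools in which A2m was highest (adjusted p = 0.0554). X52477_at was at 0.16, 0.19 and 0.06 with 5% corn oil and at -0.15, -0.19 and 0.06 with 5% olive oil, and its difference of 0.23 ± 0.09 (SE) did not pass after adjustment (unadjusted p = 0.0263 by limma), but did (adjusted p = 0.0494) without pool 3 of 5% olive oil. The direction for C3 thus depended on the probe set.

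Mug1 had the largest difference among the 23 probe sets, in the 1 probe set that it has. Whether this probe set also binds transcripts of related genes was not tested. M22359mRNA_s_at was at -1.89, -0.17 and -3.51 with 70% corn oil and at -3.46, -3.14 and -2.84 with 5% corn oil. It was at 0.55, 0.73 and 0.56 with 70% olive oil and at 0.41, 0.80 and 0.17 with 5% olive oil. All 6 corn oil arrays lay below all 6 olive oil arrays, and the corn oil array nearest to them was pool 2 of 70% corn oil. Mug1 was 12.2-fold lower with corn than with olive oil at 5% fat (-3.61 ± 0.58, SE, adjusted p = 0.00124 by limma) and 5.55-fold lower at 70% fat (-2.47 ± 0.58, SE, adjusted p = 0.0234 by limma). The call at 5% fat was kept without each array in turn. That at 70% fat was lost without pool 1 of 70% corn oil or any 1 of the 3 pools of 70% olive oil (adjusted p up to 0.0732). It was also lost with a trend and robust moderation (adjusted p = 0.0547), in the fit on the arrays of both diets alone (adjusted p = 0.0867) and without the 2 pools in which A2m was highest (adjusted p = 0.0896). The fold at 70% fat was 9.96 without pool 2 and 3.13 without pool 3 of 70% corn oil. The pool spread with 70% corn oil was wide, at an SD of 1.67 (n = 3), against 0.31 with 5% corn oil, 0.10 with 70% olive oil and 0.32 with 5% olive oil.

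The 3'/5' index differed between the same arrays as the Mug1 value. With the index as a covariate the Mug1 difference changed sign, to 0.53 ± 0.91 (SE) at 5% fat and 0.20 ± 0.64 (SE) at 70% fat. In that fit 0 of 8740 probe sets passed by limma between the oils at either fat level (522 at an unadjusted p under 0.05 at 5% fat and 698 at 70% fat), and 0 of the 23. The oil and the index separated the same arrays, so their parts cannot be told apart. Within the 6 corn oil arrays, Mug1 and the index had a Pearson r of -0.91 (exact permutation p = 0.0208, adjusted 0.12 over 46 relations) and a Spearman rho of -0.83 (exact permutation p = 0.0583, adjusted 0.244). The relation rested on the 2 arrays most distant from the middle of the index, since r was -0.45 once they were omitted. The 6 arrays were 3 at 70% and 3 at 5% fat, with a mean index of 0.71 and 1.28 and a mean Mug1 value of -1.86 and -3.15. The permutations did not keep the fat levels apart, so this relation mixes fat level with the index.

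Plg encodes plasminogen, the precursor of the fibrin-cleaving protease plasmin. M62832_at was at -0.63, -0.22 and -0.96 with 70% corn oil and at -2.19, -1.93 and -0.31 with 5% corn oil. It was at 0.22, 0.98 and 0.74 with 70% olive oil and at 0.55, 1.58 and 1.04 with 5% olive oil. As with Mug1, every corn oil array was below every olive oil array. Plg was 5.81-fold lower with corn oil at 5% fat (-2.54 ± 0.42, SE, adjusted p = 0.00154 by limma), and at 70% fat the difference of -1.25 ± 0.42 (SE) did not pass (adjusted p = 0.0903 by limma). It did pass at 70% fat after a second quantile normalization (adjusted p = 0.028), in the fit on the arrays of both diets alone (adjusted p = 0.039) and without pool 3 of 5% corn oil (adjusted p = 0.019). Without pool 3 of 5% corn oil the fold at 5% fat was 8.72. With the index as a covariate Plg was at -0.03 ± 0.86 (SE) at 5% fat.

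Within the 6 corn oil arrays, Plg and the index had r = -0.83 (exact permutation p = 0.0139, adjusted 0.12) and rho = -0.94 (exact permutation p = 0.0167, adjusted 0.153). With the same 2 arrays omitted r was -0.96. Here too, and in every relation within an oil, the arrays span both fat levels, which the permutations did not keep apart. None of the 46 relations between a probe set and the index, 23 within each oil, passed after adjustment. The strongest was that of the Crp probe set rc_AA818144_at within corn oil, with r = -0.99 (exact permutation p = 0.00278, adjusted 0.12) and rho = -0.94 (exact permutation p = 0.0167, adjusted 0.153), and r was -0.93 with the 2 arrays omitted. How small such a p can be is limited by the number of orders of 6 arrays. A single relation at the smallest possible p would still not pass after adjustment over 46 relations. That none passed therefore says little about any relation.

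The Plg and Alb promoters are shown beside those above because one belongs to a gene that was lower with corn oil and the other to a gene most of whose probe sets did not pass. Capitals again mark matches.
Plg, chr1:50915357-50915656, - strand: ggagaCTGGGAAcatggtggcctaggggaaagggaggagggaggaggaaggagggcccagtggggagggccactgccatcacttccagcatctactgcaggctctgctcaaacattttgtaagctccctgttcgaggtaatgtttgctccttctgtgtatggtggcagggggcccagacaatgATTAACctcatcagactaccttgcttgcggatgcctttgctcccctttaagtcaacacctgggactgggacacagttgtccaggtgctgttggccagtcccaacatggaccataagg
Alb, chr14:17906930-17907229, - strand: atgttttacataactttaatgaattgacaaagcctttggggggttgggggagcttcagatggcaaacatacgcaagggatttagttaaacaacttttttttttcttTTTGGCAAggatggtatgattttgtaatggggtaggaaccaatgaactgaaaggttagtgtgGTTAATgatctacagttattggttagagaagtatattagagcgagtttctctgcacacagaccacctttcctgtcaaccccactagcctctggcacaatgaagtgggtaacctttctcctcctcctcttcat
The Plg window held CTGGGAA at 245 and the HNF1 motif at 67 bases before the start. The Alb window held the C/EBP motif at 144 and the HNF1 motif at 82 bases before the start. Crp and Azgp1 had no match of the 4 motifs in their windows.

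**Figure D3:**
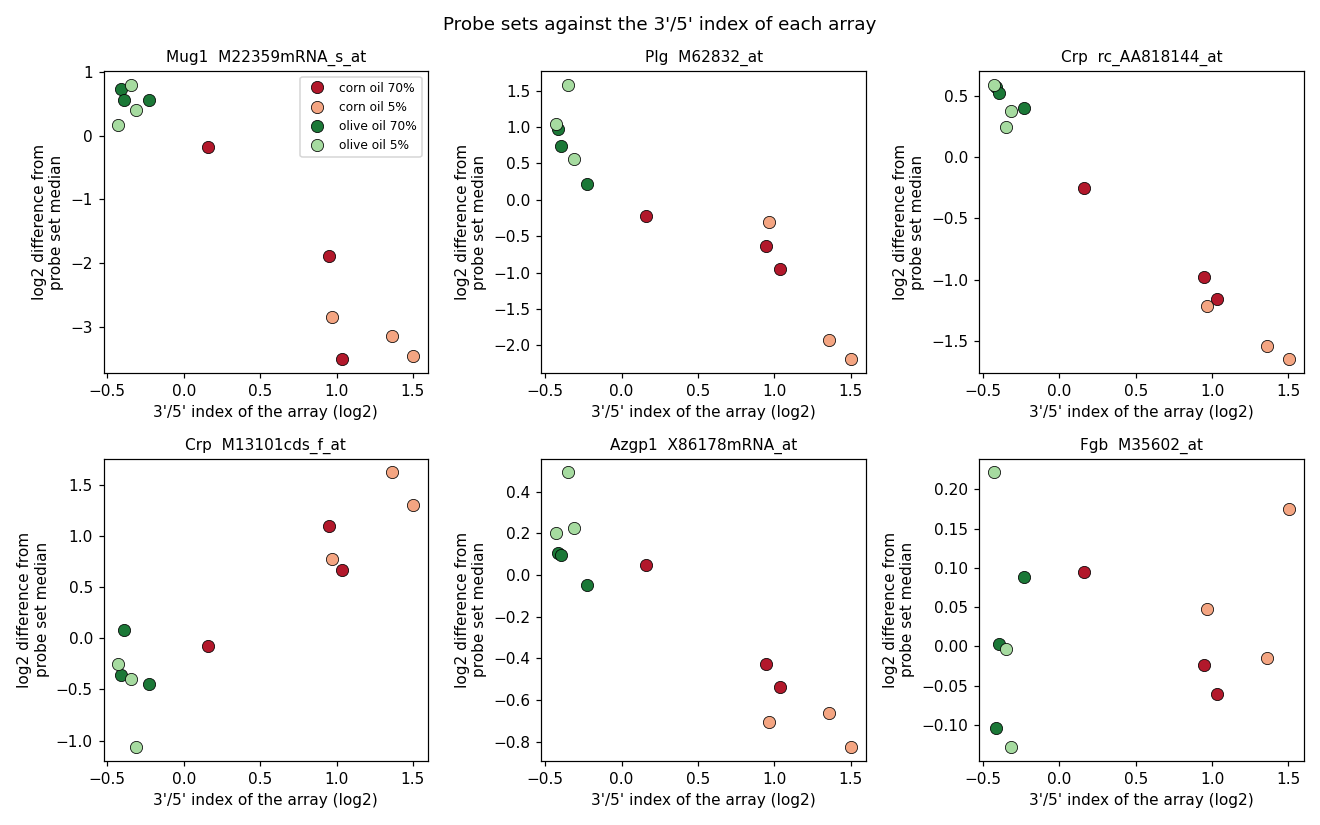
The log2 difference of 6 probe sets from their medians (y axis) against the 3'/5' index of each of the 12 arrays (x axis, log2), coloured by diet. Mug1, Plg and the Crp probe set rc_AA818144_at are lower in all 6 corn oil arrays, whose index is above 0, than in all 6 olive oil arrays, while the Crp probe set M13101cds_f_at is highest at 5% corn oil and the Fgb probe set M35602_at stays between -0.13 and 0.22.

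Crp encodes C-reactive protein, a pentraxin whose response to inflammation is weaker in rats than in humans. Its probe sets disagreed in direction. rc_AA818144_at was at -0.98, -0.25 and -1.16 with 70% corn oil and at -1.65, -1.55 and -1.21 with 5% corn oil. It was at 0.40, 0.57 and 0.52 with 70% olive oil and at 0.38, 0.25 and 0.60 with 5% olive oil, above every corn oil array. It was 3.68-fold lower with corn oil at 5% fat (-1.88 ± 0.20, SE, adjusted p = 0.000203 by limma) and 2.46-fold lower at 70% fat (-1.30 ± 0.20, SE, adjusted p = 0.00494 by limma). Both calls were kept without each array in turn and ended with the index as a covariate, at -0.29 ± 0.23 (SE) and -0.27 ± 0.16 (SE).

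The other Crp probe sets moved the opposite way. M13101cds_f_at was 3.49-fold higher with corn oil at 5% fat (1.80 ± 0.30, SE, adjusted p = 0.00167 by limma), with 1.30, 1.62 and 0.77 in the corn oil arrays and -1.06, -0.40 and -0.25 in the olive oil arrays. U83119_f_at was 2.97-fold higher (1.57 ± 0.33, SE, adjusted p = 0.0055 by limma). At 70% fat neither passed, with differences of 0.80 ± 0.30 and 0.77 ± 0.33 (SE), though M13101cds_f_at passed without pool 2 of 70% corn oil (1.12, adjusted p = 0.0212). These probe sets followed each other with r = 0.99 over the 12 arrays and ran against rc_AA818144_at with r of -0.91 and -0.87, as a description. In Affymetrix names the ending f marks probes shared by similar sequences, so they may bind transcripts other than Crp. No direction is therefore given for Crp as a gene, and the mean of its 3 probe sets differed by 0.50 ± 0.19 (SE, adjusted p = 0.0957 by limma on 1 value per gene).

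Alb encodes albumin, the main carrier protein of plasma. Of its 4 probe sets, rc_AA860062_at, rc_AA866237_s_at and rc_AA945321_at stayed between -0.15 and 0.35 in all arrays and passed in no contrast. The 95% interval of rc_AA866237_s_at for corn minus olive oil at 5% fat ran from -0.18 to 0.15. The fourth, rc_AA860062_g_at, was at -0.19, 0.01 and -0.06 with 70% corn oil and at -0.86, -0.80 and -0.36 with 5% corn oil. It was at 0.20, 0.13 and 0.22 with 70% olive oil and at 0.16, 0.11 and -0.01 with 5% olive oil. The 3 arrays of 5% corn oil were below all others. The difference for corn minus olive oil at 5% fat was -0.76 ± 0.12 (SE, adjusted p = 0.00118 by limma). With the index as a covariate it was -0.24 ± 0.29 (SE, adjusted p = 0.909 by limma). The probe set of the same sequence name, rc_AA860062_at, was at 0.17 ± 0.10 (SE) without the covariate. Both had r = -0.39 over the 12 arrays, as a description. For 70% minus 5% fat with corn oil rc_AA860062_g_at differed by 0.59 ± 0.12 (SE, adjusted p = 0.0304 by limma), the 1 fat difference that passed among the 23. That call ended when any 1 of 7 arrays was omitted (highest adjusted p 0.121) and with the index as a covariate, at 0.41 ± 0.14 (SE, adjusted p = 0.262). The index itself averaged 0.71 at 70% fat and 1.28 at 5% fat with corn oil.

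Azgp1 encodes zinc-alpha-2-glycoprotein, a secreted protein that promotes lipid mobilisation from fat cells. X86178mRNA_at was at -0.43, 0.05 and -0.54 with 70% corn oil and at -0.83, -0.66 and -0.71 with 5% corn oil. It was at -0.05, 0.10 and 0.09 with 70% olive oil and at 0.23, 0.49 and 0.20 with 5% olive oil. The diets did not overlap between fat levels with either oil, and at 5% fat they did not overlap between the oils. At 5% fat it was 2.05-fold lower with corn oil (-1.04 ± 0.14, SE, adjusted p = 0.000489 by limma). X86178mRNA_g_at, whose r with it was 0.95, was 1.92-fold lower (-0.94 ± 0.15, SE, adjusted p = 0.00135 by limma). At 70% fat both differed by -0.35, with SE of 0.14 and 0.15, and did not pass. Without pool 2 of 70% corn oil, X86178mRNA_at was at -0.53 (adjusted p = 0.0088) and X86178mRNA_g_at at -0.52 (adjusted p = 0.0226). X75309_at was higher with corn oil, by 0.35 ± 0.09 (SE, adjusted p = 0.0207 by limma) at 5% fat and by 0.33 ± 0.09 (SE, adjusted p = 0.0499 by limma) at 70% fat. The X75309_at call at 70% fat ended when any 1 of 10 arrays was omitted (highest adjusted p 0.146), and that at 5% fat with any 1 of 3 arrays omitted (highest adjusted p 0.0815). The call at 70% fat was also lost after a second quantile normalization, with array centring, with the pool number as a replicate block and in the fit on both diets alone (adjusted p from 0.058 to 0.0786). In the fit on both diets alone the call at 5% fat was lost too. A minimum of 1.5-fold ended the X75309_at calls at both fat levels. The mean of the 3 probe sets was lower with corn oil at 5% fat (-0.54 ± 0.11, SE, adjusted p = 0.0052 by limma on 1 value per gene). That mean counts both X86178mRNA_at and X86178mRNA_g_at, which moved together, against X75309_at, which passed the other way. No direction is therefore given for Azgp1 as a gene.

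**Figure D4:**
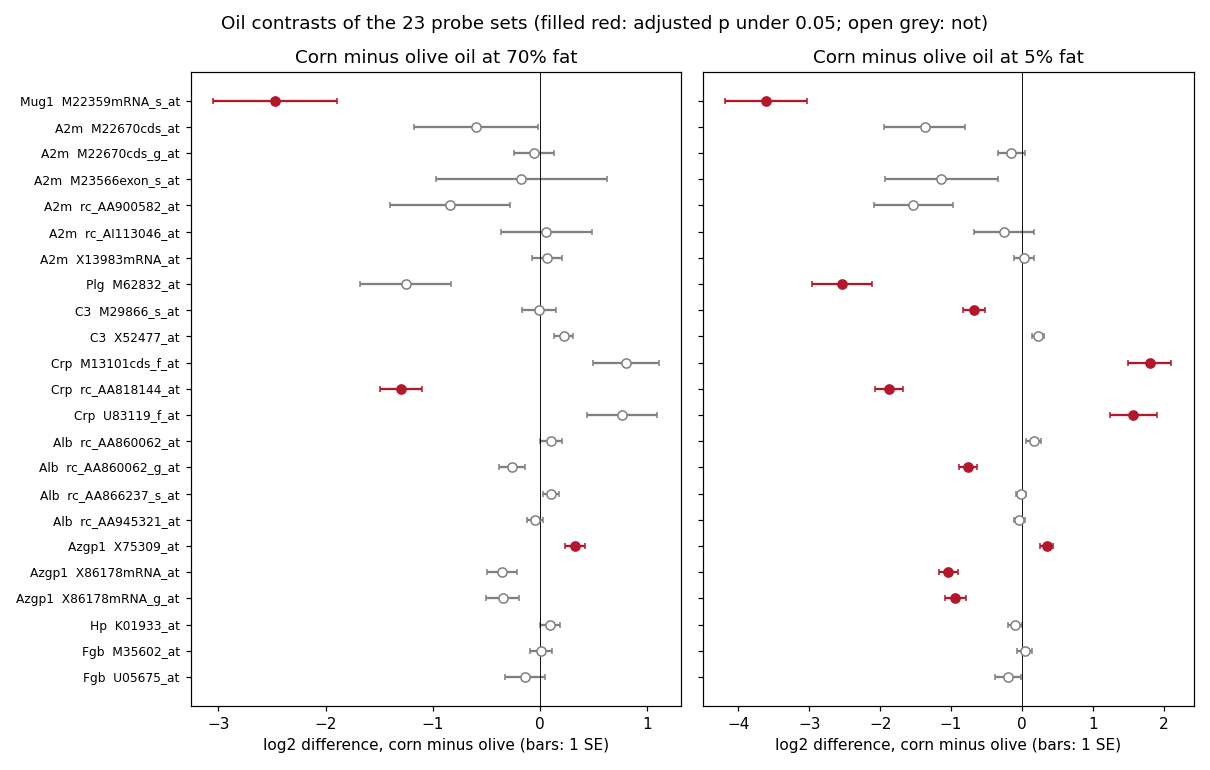
The log2 difference for corn minus olive oil (x axis, bars of 1 SE, 3 arrays per diet) of each of the 23 probe sets (rows) at 70% fat on the left and 5% fat on the right. Filled red points passed the test, 3 at 70% fat and 10 at 5% fat, and probe sets of Crp and Azgp1 lie on both sides of 0.

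Differences between fat levels were mostly smaller than the spread between pools. With corn oil, the arrays of both fat levels did not overlap for 7 of 23 probe sets, all of them higher at 70% fat, against 18.9% of all probe sets. Among those, Crp rc_AA818144_at differed by 0.67 ± 0.20 (SE, adjusted p = 0.103 by limma) and Azgp1 X86178mRNA_g_at by 0.52 ± 0.15 (SE, adjusted p = 0.103 by limma), which passed at 0.66 without pool 1 of 70% corn oil (adjusted p = 0.0405). C3 M29866_s_at differed by 0.46 ± 0.16 (SE, adjusted p = 0.145 by limma). With olive oil, 1 of 23 did not overlap, Azgp1 X86178mRNA_at, lower at 70% fat, against 19.8% of all probe sets. Mug1 differed by 1.29 ± 0.58 (SE, adjusted p = 0.253 by limma) with corn oil and by 0.16 ± 0.58 (SE, adjusted p = 0.976 by limma) with olive oil. The corn oil value for Mug1 was 2.12 and passed without pool 3 of 70% corn oil (adjusted p = 0.022), and Plg, at 0.87 ± 0.42 (SE, adjusted p = 0.294 by limma), was 1.46 and passed without pool 3 of 5% corn oil (adjusted p = 0.0259). Between the oils, arrays did not overlap for 9 of 23 probe sets at 70% fat, against 27.2% of all, and for 13 of 23 at 5% fat, against 41.3% of all.

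Other transcripts of plasma proteins were counted on the same arrays, from lists drawn up for the acute phase, complement and coagulation, with members of the 9 genes left out. Of 15 measured positive acute phase genes, 1 rose and 2 fell with corn oil at 5% fat (median of 22 probe sets -0.30, against 0.06 over all probe sets). That was 13.6% of their probe sets, against 19.5% of all. Hpx, the haem carrier hemopexin, fell by 0.48 ± 0.15 (SE) in its 1 probe set. In 1 of 2 probe sets each, Cd14 fell by 0.86 ± 0.22 (SE) and Ambp rose by 0.40 ± 0.08 (SE), and the others were at -0.02 and 0.17 and did not pass. Of 11 measured negative acute phase and carrier genes, 1 rose and 4 fell (24% of 25 probe sets, against 19.5% of all). Rbp4, which carries retinol, fell by 1.42 ± 0.17 and 0.54 ± 0.12 (SE) in 2 probe sets, and the third was at 0.15 and did not pass. Igfals, a partner of the insulin-like growth factors in plasma, fell by 1.19 ± 0.26 (SE) in 1 probe set, and the others were at -0.27 and 0.35 and did not pass.

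Of 14 measured complement genes, 2 rose and 5 fell with corn oil at 5% fat (35% of 20 probe sets, against 19.5% of all). In 1 of 2 probe sets each, C8b, a part of the membrane attack complex, fell by 0.97 ± 0.12 (SE) and Mbl2, a mannose-binding lectin, by 0.86 ± 0.19 (SE), and the others were at -0.19 and -0.002 and did not pass. Of 17 measured genes of coagulation, fibrinolysis and serpins, 1 rose and 5 fell (31.8% of 22 probe sets). F9, coagulation factor IX, fell by 1.87 ± 0.21 (SE) and Serpind1, heparin cofactor II, by 0.74 ± 0.12 (SE), with 1 probe set each. Serpina1, the alpha-1-antitrypsin gene, fell by 0.85 ± 0.13 and 0.27 ± 0.09 (SE) in 2 probe sets, and the third was at 0.18 and did not pass. At 70% fat F9 fell by 1.23 ± 0.21 (SE). With the index as a covariate none of these genes passed between the oils, since 0 of all 8740 probe sets did.

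Of 23 measured genes of cytokine signalling to the acute phase, 5 had a probe set that rose and 5 one that fell at 5% fat, with 1 gene in both counts (22.7% of 44 probe sets, against 19.5% of all). Jak1, a kinase of the interleukin-6 receptor complex, fell by 1.65 ± 0.19 (SE) in its 1 probe set. In 1 of 2 probe sets each, Cebpb, C/EBP beta, fell by 0.93 ± 0.22 (SE), Cebpa, C/EBP alpha, fell by 0.83 ± 0.12 (SE) and Nfkbia, an inhibitor of NF-kappa B, rose by 0.996 ± 0.19 (SE). The others were at 0.10, -0.05 and 0.18 and did not pass. At 70% fat 3 genes rose and 4 fell (15.9% of 44 probe sets, against 8.51% of all). Among them Stat3, the signal transducer of interleukin-6, fell by 0.66 ± 0.16 (SE) in X91810_at. The other Stat3 probe set, rc_AI639141_at, was at 0.15 and did not pass there, and it rose by 0.37 ± 0.11 (SE) at 5% fat. Between fat levels, 0 genes of the positive, complement, coagulation and cytokine lists passed by limma with either oil. Of all probe sets, 2.11% passed with corn oil and 0.435% with olive oil. These lists hold 22, 20, 22 and 44 probe sets. With corn oil 1, 3, 4 and 4 of them had an unadjusted p under 0.05 by limma, against 18.8% of all. With olive oil 0, 10, 1 and 2 did, against 8.5% of all. The median of the 20 complement probe sets with olive oil was -0.32, against 0.03 over all. On the negative list 1 gene passed, Serpina7, which encodes the thyroxine-binding globulin and rose by 2.37 ± 0.33 (SE) at 70% fat with corn oil.

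Markers of other liver cells also differed between the oils. Of 9 measured stellate cell and fibroblast markers, 4 rose and 0 fell with corn oil at 5% fat (31.6% of 19 probe sets, against 19.5% of all). The mean of their 19 probe sets per array ran from 0.10 to 0.18 with 70% corn oil and from 0.07 to 0.34 with 5% corn oil. It ran from -0.07 to -0.03 with 70% olive oil and from -0.25 to -0.07 with 5% olive oil. Of 15 measured hepatocyte markers, 2 had a probe set that rose and 8 one that fell, with 2 in both counts (34.4% of 32 probe sets), and the mean of 32 probe sets ran from -0.15 to -0.11 with 5% corn oil and from 0.04 to 0.10 with 5% olive oil. Of 9 Kupffer cell and macrophage markers, 2 rose and 3 fell (33.3% of 18 probe sets). Of 5 endothelial markers 2 rose and 1 fell (3 of 6 probe sets), and of 5 cholangiocyte markers 3 rose and 1 fell (4 of 7 probe sets). Of 4 adipocyte markers 2 rose (28.6% of 7 probe sets), and of 7 blood cell markers 1 rose (8.33% of 12 probe sets). The part of these markers in the results for the 23 probe sets was not tested.

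Genes whose pattern was most like each member were found by Pearson r over the 12 arrays on 1 value per gene, as a description. The mean of each oil had been removed first. The 3'/5' index still differed among the corn oil arrays, with means of 0.71 at 70% fat and 1.28 at 5% fat. The part of the index in these r values was not tested. For A2m the genes most alike were Lbp (r = 0.95), Ptpn2 (r = 0.91) and Serpina10 (r = 0.90). For Hp they were the complement genes C4bpa (r = 0.92) and C9 (r = 0.90), followed by Tacr1 (r = 0.88). For Fgb they were Il1r1 (r = 0.93), Hgf (r = 0.93) and Cyss (r = 0.88). The values of A2m, Lbp, Serpina10, Hp, C4bpa, C9, Fgb and Il1r1 were all highest in pool 3 of 5% olive oil. The part of this 1 array in their r values was not tested. For Mug1 they were Stard3 and Gm2a (r = 0.94 each) and Pzp (r = 0.93), and for Plg Arsb (r = 0.93), Ppp2cb (r = 0.90) and Gak (r = 0.87).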

How the data were processed

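RNA of pooled rat livers was labelled with biotin and measured on single-colour Affymetrix arrays. The deposited values of the 8799 probe sets are log2, made with GCOS and RMA of unnamed version per the submitters' processing notes. No header states the log base, and 2 was assumed. Each probe set's median over 12 arrays was 0 within 1e-06, so values are differences, absolute levels and signal over background are unknown, and a filter on low values could not be applied. No column belonged to other samples. Tests covered 8740 probe sets, after removal of 59 controls of the array. The platform annotation gave 1 gene symbol to 7006, several to 308 and none to 1426.

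Tests used limma 3.58.1 in R 4.3.3, with a mean for each diet, a spread shared by all 12 arrays (8 residual degrees of freedom), eBayes moderation and Benjamini-Hochberg adjustment within each of 5 contrasts. The code was tested on simulated data. Precision is limited by how few arrays there are. No 2 arrays were duplicates (smallest root mean square difference 0.195). Tried instead were array centring, a second quantile normalization, a trend with robust moderation, array weights, the pool number as a block, fits on 2 diets, 1 value per gene, the 3'/5' index as a covariate, a minimum of 1.5-fold and leaving out arrays. Of the other lists, up to 4 genes past the test with the largest changes were eligible to be named. Lcn2, Lbp, Orm1, Serpina3n, C9, Cebpd, Il6r, Il6, S100a8, S100a9, Hbb and Alas2 were named after their values had been seen. The members and lists were chosen with earlier results of these data known. Protein sequences were not used here.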

Additional observations from a re-analysis of the deposited data

Results flagged for a closer look

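The fat effects on the Azgp1 probe set X86178mRNA_at went in opposite directions with the oils in every array. With corn oil all 3 arrays at 70% fat lay above all 3 at 5% fat, and with olive oil all 3 at 70% fat lay below all 3 at 5% fat. The difference between both fat effects was 0.68 ± 0.20 (SE), with an adjusted p of 0.31 by limma over all probe sets, so it did not pass the test. The second probe set of the same design, X86178mRNA_g_at, differed by 0.59 ± 0.22 (SE, adjusted p = 0.353), and X75309_at by -0.02 ± 0.13 (SE, adjusted p = 0.974). The 3'/5' index averaged 0.71 at 70% and 1.28 at 5% fat with corn oil, and with it as a covariate the difference for X86178mRNA_at was 0.38 ± 0.17 (SE, adjusted p = 0.633).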

How the results depend on the processing

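For 70% minus 5% fat with corn oil, the 1 probe set that passed (Alb rc_AA860062_g_at) became 0 after a second quantile normalization, with a trend and robust moderation, on the arrays of both diets alone, with a 3'/5' index term, with 1 value per gene and without the 2 pools in which A2m was highest, an alternative chosen after seeing the data. For corn minus olive oil at 70% fat, the 3 became 0 with the index, 1 with 1 value per gene (Mug1) and 1 without those 2 pools (Crp rc_AA818144_at). At 5% fat the 10 became 0 with the index and 3 with 1 value per gene (Mug1, Plg and Azgp1). Leaving out each array in turn gave 0 to 2 with corn oil and 0 with olive oil between fat levels, 1 to 5 at 70% fat and 9 to 11 at 5% fat between oils, and 0 for the difference between both fat effects. Mug1 changed sign with the index, to 0.20 at 70% fat and 0.53 at 5% fat; the cause was not tested. The other alternatives stayed within 1.5 times these counts, though not always with the same probe sets. At 70% fat Mug1 was lost with a trend and robust moderation and on the arrays of both diets alone. Azgp1 X75309_at was lost there with the pool number as a block, second quantile normalization, array centring, both diets alone and a minimum of 1.5-fold. At 5% fat X75309_at was lost on the arrays of both diets alone and with that minimum. With the pool number as a replicate block the counts were 1 and 0 between fat levels with corn and olive oil, 2 and 10 between oils at 70% and 5% fat, and 0 for the difference. Nothing in the labels says that the pool numbers pair the samples. Of 18 pairs of same-numbered pools 3 had correlated deviations over 0.1 (range -0.19 to 0.23). With 3 pools per diet this cannot decide whether the numbers pair the samples. Among single probe sets, differences that had not passed changed sign 83 times when 1 array was left out and 67 times under the other alternatives. A filter on low values and detection limits could not be set on centred values.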
